A study of Rattus norvegicus with 16 samples.

Results

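Chl1, S100b, Ncam1, Gap43, Uchl1, Th and Prph are 7 genes of nerve fibres and Schwann cells, measured here in the left ventricle of rats bred for high or low running capacity. Every probe set that the array annotation assigns to exactly 1 of these symbols was taken, which gave 10 of the 31042 probe sets on the array, for 7 of 14217 named genes. Ncam1 had 3 probe sets, Gap43 had 2 and the other genes had 1 each. The genes were picked from values of the line difference in sedentary rats, so that difference is described below without serving as evidence. Trained rats are not in that difference, and their line difference is the test, though earlier results of these data were known when the genes were picked.

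Left ventricular RNA was measured in 16 rats labelled female and aged about 7 months, each on its own Affymetrix whole-genome rat array. All were of generation 16 of 2 lines that descend from the N:NIH stock, the High Capacity Runners (HCR) and the Low Capacity Runners (LCR), bred by treadmill performance at about 11 weeks of age. In each line 4 rats stayed sedentary and 4 trained for 8 weeks, 5 days per week. A training session lasted 1.5 hours on a 25 degree incline and alternated hard running (8 minutes, 85 to 90% of maximal oxygen uptake) with recovery (2 minutes, 50 to 60%). Each direction of selection is represented by 1 breeding population, so selection and any other inherited difference between the populations cannot be told apart. The samples are whole tissue, in which fewer cells of a type and less RNA per cell cannot be told apart.

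The ventricle is innervated mainly by sympathetic fibres, whose cell bodies lie outside the heart in ganglia. Schwann cells ensheath these fibres and are present in the tissue together with their nuclei. Messenger RNA of a neuron is made in its cell body, so a piece of ventricle can hold Schwann cell transcripts in full but only the part of neuronal transcripts that travels into axons or comes from the small ganglia of the heart. Chl1 (close homolog of L1) and Ncam1 are adhesion molecules of the immunoglobulin superfamily that axons and glia use to grow along each other. Ncam1 is also carried by heart muscle cells. S100b is a calcium-binding protein of Schwann cells that adipocytes make as well. Gap43 is a growth cone protein, Uchl1 a ubiquitin hydrolase abundant in neurons and Prph (peripherin) an intermediate filament of peripheral neurons. Th, tyrosine hydroxylase, makes the first committed step of noradrenaline synthesis.

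Upstream DNA is shown for the 3 genes near background or on its limit, defined below, whose sedentary groups of the 2 lines did not overlap. It was read from RefSeq promoters of the GRCr8 build, which had an entry for 5 of the 7 genes. Each line gives the 120 bases before the annotated start, 5′ to 3′ on the gene's strand, with any match to the searched motifs in capitals.
Chl1 (chr4:137847775-137847894, + strand): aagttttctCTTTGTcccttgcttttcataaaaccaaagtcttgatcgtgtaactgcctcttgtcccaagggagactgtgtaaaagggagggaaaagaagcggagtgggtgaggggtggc
Th (chr1:207508219-207508338, - strand): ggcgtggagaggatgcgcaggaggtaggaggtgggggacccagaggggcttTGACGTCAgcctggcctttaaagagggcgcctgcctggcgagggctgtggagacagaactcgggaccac
Prph (chr7:132097169-132097288, + strand): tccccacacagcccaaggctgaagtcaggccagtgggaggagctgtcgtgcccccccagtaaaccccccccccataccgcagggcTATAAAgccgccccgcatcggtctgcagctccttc
The motifs searched on both strands of the 250 bases upstream were a cAMP response element (TGACGTCA), a TATA box (TATAAA) and a Sox core (ACAAAG). Th held the cAMP response element at position -69, which 1.59% of 33469 promoters hold. Prph held the TATA box at position -35 and Uchl1 held it on the reverse strand at position -29, as 12.9% of promoters do on either strand. Chl1 held the Sox core on the reverse strand at position -111, as do 16.3% of promoters. S100b held none of them. A match is a description of letters and no measurement of binding.

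The level of each probe set decides how its differences can be read. A background limit was set at 5.86 (log2, RMA), the 90th percentile of the mean levels of 62 probe sets of genes that belong to other tissues, such as olfactory receptors, pituitary hormones and digestive enzymes. Of all probe sets on the array, 15229, or 49.1%, had a mean over the 16 arrays at or below it and are called near background here. Among the nerve genes, 8 of the 10 probe sets were near background. They were those of Chl1, S100b, Gap43, Uchl1 and Prph and 2 of the 3 of Ncam1, and none of these 8 passed the limit on any of the 16 arrays. Th lay on the limit, 0.012 above it on average and above it on 9 of the 16 arrays. Ncam1 1379389_at was the 1 probe set above the limit on 16 of 16 arrays, at a mean of 7.13. Some of the 62 probe sets of other tissues lay higher still, such as Cyp2e1 at 7.49 and Lhb at 7.39. A level above the limit therefore does not alone show that a gene was expressed. A level on an array also depends on the probe sequence, so a low level does not show that a transcript was absent, and the order of levels between genes is not read.

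**Figure D1:**
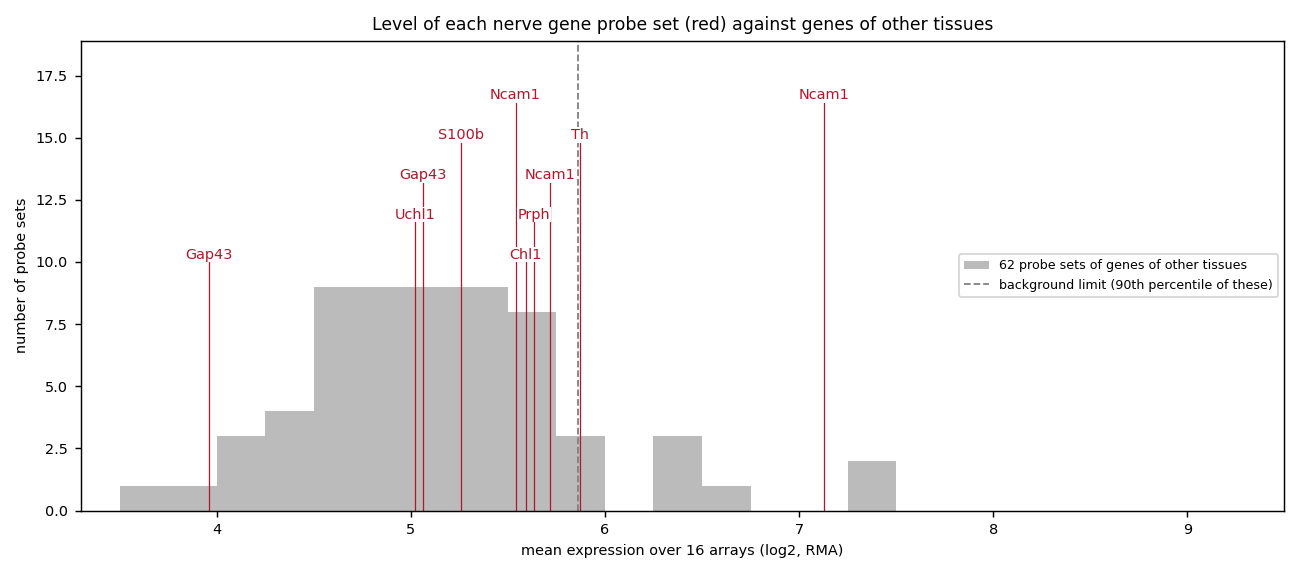
Mean log2 expression over 16 arrays (x axis) for 62 probe sets of genes of other tissues, as a histogram of their number (y axis), with the 10 nerve gene probe sets as red lines and the background limit dashed. All red lines but those of Th and of 1 Ncam1 probe set lie left of the limit of 5.86, among the levels of the genes of other tissues.

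The 5 heart muscle genes measured, such as Myh6 at a mean of 13.9 and Myl2 at 14.3, were far above background. The 4 atrial genes measured were above the limit too, with means of 11.5 for Nppa, 7.74 for Myl4, 6.92 for Myl7 and 5.95 for Sln. In sedentary rats 3 of these 4 were higher in HCR and 1 lower, with 0 called in limma. In trained rats 2 were higher and 2 lower, with 0 called. The largest trained difference was 1.37 for Nppa (adjusted p = 0.156). The share of atrial tissue in the samples was not tested. Defining Schwann cell genes were low but 3 of them lay above the limit, with mean levels of 6.32 for Sox10, 6.02 for Erbb3 and 5.89 for Mbp. Of the genes of noradrenaline synthesis and transport, Dbh (6.01) and Slc18a2 (6.31) were above the limit and Slc6a2 (5.72) was near background. The general axon genes Nefl (5.33) and Stmn2 (4.44) were near background. The cholinergic genes Chat, Slc5a7 and Slc18a3 were near background. The array of HCR sedentary rat 5 stood apart, with values of 3.76 to 4.94 on 4 probe sets of Xist, against 7.56 to 10.34 on the other 15 arrays. Xist is transcribed from the inactive X chromosome, so this array goes against its label of female. Whether the rat was male or the sample was mixed up was not tested, and its line and training are known only from the same label. The main counts and calls that rest on it are also given without it.

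For Chl1 the lines stood apart in sedentary rats and overlapped in trained rats. Its values in the sedentary HCR rats were 5.81, 5.73, 5.76 and 5.74, and in the sedentary LCR rats 5.52, 5.38, 5.38 and 5.29. All 4 HCR rats lay above all 4 LCR rats. The trained HCR rats had values of 5.54, 5.70, 5.81 and 5.59, and the trained LCR rats 5.63, 5.53, 5.56 and 5.49. The trained groups overlapped: HCR rats 3 and 6 lay below the highest LCR rat. The trained values of both lines lay mostly between those of the sedentary groups, so that the means came in the order HCR sedentary (5.76 ± 0.037 SD, n = 4), HCR trained (5.66 ± 0.12), LCR trained (5.55 ± 0.059) and LCR sedentary (5.39 ± 0.096). Of the neighbours in this order, each pair of groups overlapped.

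Ncam1 1379389_at, the bright probe set, ran the other way. Its values were 6.69, 6.94, 6.75 and 6.97 in sedentary HCR rats and 7.47, 7.23, 7.57 and 7.64 in sedentary LCR rats. All 4 HCR rats lay below all 4 LCR rats. Trained HCR rats had values of 6.66, 7.20, 7.12 and 6.83, and trained LCR rats 6.84, 7.84, 7.38 and 6.89. LCR rats 1 and 4 lay within the range of the trained HCR rats, and the SD of the trained LCR group, 0.47, was the highest of the 4 groups. The group means were 6.84 ± 0.14 (SD, n = 4) in HCR sedentary, 6.95 ± 0.25 in HCR trained, 7.24 ± 0.47 in LCR trained and 7.48 ± 0.18 in LCR sedentary.

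The other Ncam1 probe sets, both near background, did not share that direction. For 1368320_at the sedentary HCR rats had values of 5.62, 5.75, 5.63 and 5.48 and the sedentary LCR rats 5.59, 5.27, 5.54 and 5.47. For 1377368_at the values were 5.76, 5.86, 5.85 and 5.80 in sedentary HCR rats and 5.85, 5.77, 5.72 and 5.64 in sedentary LCR rats. The lines overlapped in both. The 3 probe sets of this 1 gene therefore disagreed in sign, at -0.64, 0.15 and 0.07 for HCR minus LCR in sedentary rats. Which transcript each detects was not examined here.

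Th values were 5.91, 5.96, 6.13 and 5.91 in sedentary HCR rats and 5.70, 5.87, 5.85 and 5.70 in sedentary LCR rats. The sedentary means differed by 0.20 ± 0.087 and the groups did not overlap, although the lowest HCR rat (5.91) lay close to the highest LCR rat (5.87). In trained rats they were 6.05, 5.74, 5.73 and 6.04 in HCR and 5.82, 5.98, 5.89 and 5.69 in LCR. The trained HCR rats fell into a high and a low pair, and the LCR rats lay mostly between them.

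Prph, the filament protein, had values of 5.75, 5.72, 5.75 and 5.70 in sedentary HCR rats and 5.64, 5.62, 5.55 and 5.31 in sedentary LCR rats. The sedentary lines did not overlap, with LCR rat 6 lowest of all 16. Trained HCR rats had 5.73, 5.58, 5.69 and 5.61 and trained LCR rats 5.51, 5.67, 5.74 and 5.59, which overlapped throughout.

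S100b values, the Schwann cell member, were 5.27, 5.37, 5.64 and 5.40 in sedentary HCR rats and 5.19, 5.41, 4.98 and 5.23 in sedentary LCR rats. They were 5.29, 5.00, 5.22 and 5.33 in trained HCR rats and 5.26, 5.41, 4.83 and 5.32 in trained LCR rats. The 4 groups overlapped with each other.

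For Uchl1 the sedentary HCR rats had 5.09, 5.10, 5.17 and 5.17 and the trained HCR rats 5.03, 4.87, 5.01 and 4.98, which did not overlap. LCR rats had 5.16, 4.89, 4.91 and 5.05 when sedentary and 5.11, 5.03, 5.05 and 4.76 when trained, overlapping both HCR groups. The 2 probe sets of Gap43 ranged from 4.78 to 5.33 (1367930_at) and from 3.87 to 4.08 (1371287_at) over the 16 rats, and in both the lines overlapped in sedentary and in trained rats.

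**Figure D2:**
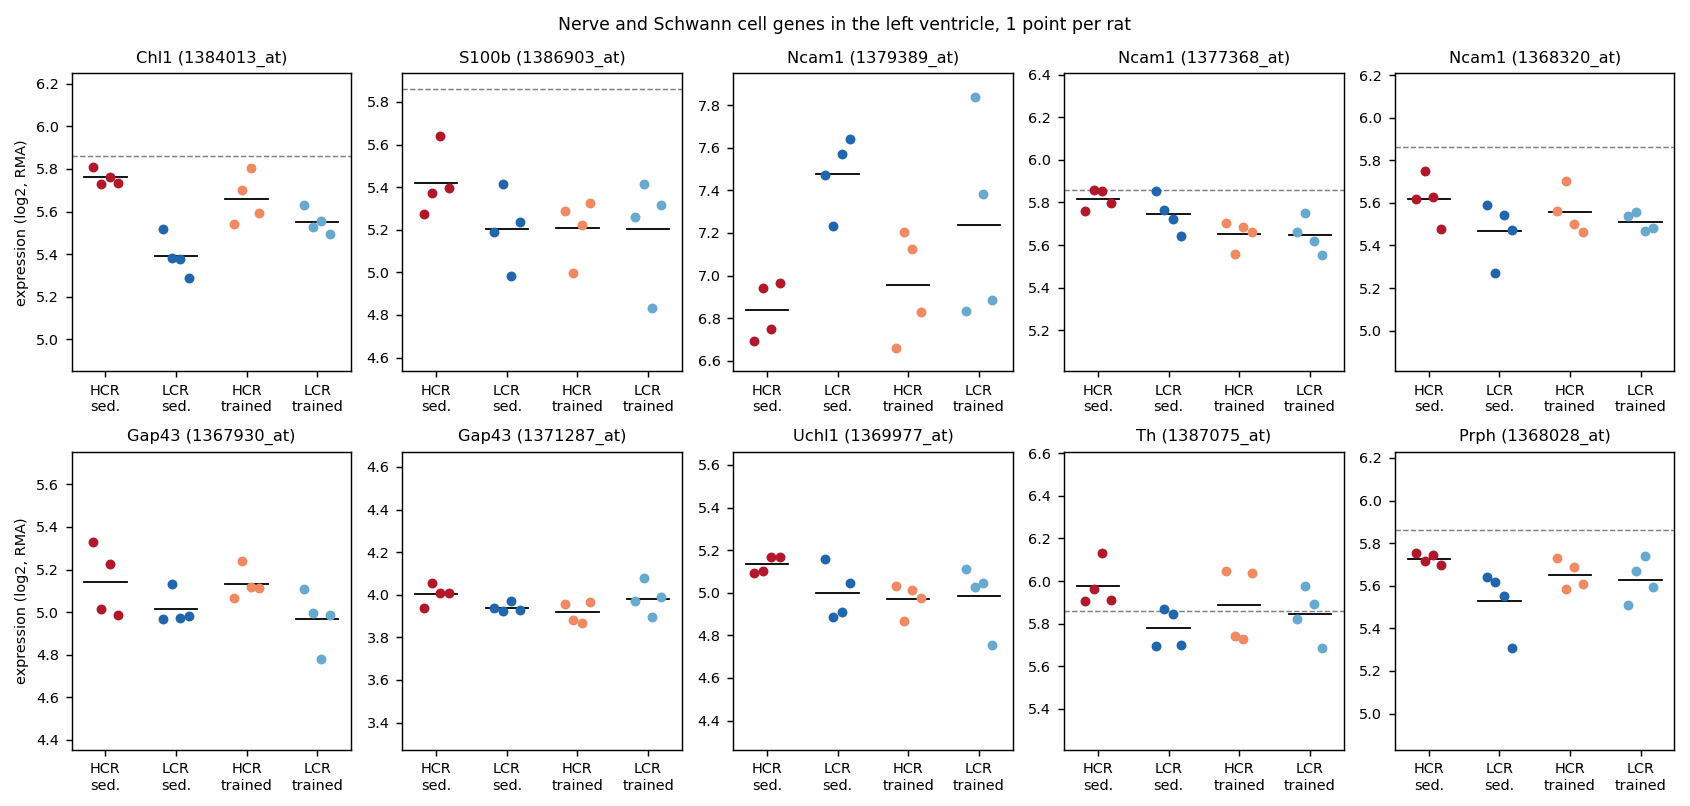
Log2 expression (y axis) of the 10 probe sets in each of the 16 rats (points) by group (x axis), with group means as black bars and the background limit of 5.86 as a dashed line. Panels span at least 1.4 log2 units and their y axes differ. In sedentary rats the points of HCR lie above those of LCR for Chl1, Th and Prph and below them for Ncam1 1379389_at, and in trained rats the lines overlap in every panel.

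The comparison that chose the genes, HCR minus LCR in sedentary rats, gave 9 of 10 probe sets higher in HCR, with a median difference of 0.14 (log2). In limma with Benjamini-Hochberg adjustment over all probe sets, 2 of the 10 were called at an adjusted p of 0.05, against 4.99% of all probe sets. Chl1 was higher by 0.37 ± 0.064 (SE), or 1.29-fold, with an adjusted p of 0.0139. Ncam1 1379389_at was lower by 1.56-fold, a log2 difference of -0.64 ± 0.18 with an adjusted p of 0.0497. The lines did not overlap in 4 of the 10 probe sets, against 18.3% of all. These counts restate the choice of genes, and nothing is read from them.

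Without HCR sedentary rat 5 the log2 difference of Chl1 was 0.37 (adjusted p = 0.0468) and that of Ncam1 1379389_at was -0.61 (adjusted p = 0.130). Chl1 lost its call without LCR sedentary rat 6 (0.33, adjusted p = 0.0588). With the interquartile range of each array as a covariate, the Chl1 difference was 0.34 with an adjusted p of 0.418. Ncam1 1379389_at passed in 3 of 16 fits that each left out 1 rat, and its difference stayed between -0.79 and -0.56 over its 28 settings.

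Small positive differences were common at this level of expression. Of the 15229 probe sets near background, 74.7% were higher in sedentary HCR than in sedentary LCR rats, with a median of 0.072. Of the 62 probe sets of genes of other tissues, 58 were higher in HCR, with a median of 0.13, and 55 were higher without rat 5. The 8 nerve gene probe sets near background were all higher, with a median of 0.14. Above the background limit the median of all probe sets was -0.062. The array medians near background were 5.11 to 5.17 in sedentary HCR rats and 5.07 to 5.09 in sedentary LCR rats. The interquartile range of an array was 1.97 to 2.10 in sedentary HCR and 2.14 to 2.21 in sedentary LCR rats, so it separated the same groups. In trained rats both measures overlapped between the lines. Their part in the nerve gene differences was not tested.

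The ranks that follow use the difference that chose the genes and are a description only. Set beside probe sets on its own side of the background limit, Chl1 was at one end. Of the 15229 near background, 71 had a difference as large, and Chl1 exceeded their median by 0.30. Ncam1 1379389_at was as low as 97 of the 15813 above the limit. Th, on the limit, exceeded the median of those 15813 by 0.26, with 1376 of them as high. Most of those 15813 lie at higher levels than Th. At levels of 5.5 to 6 the median of all probe sets was 0.087, beside 0.20 for Th. Prph, S100b and the rest were closer than Chl1 to the median near background. There 1677 and 1229 probe sets were as high as Prph and S100b, and 7621 as high as Ncam1 1377368_at. With each array centred on its median near background, which was chosen after seeing the data, 7 of the 10 probe sets were higher and the median was 0.067. With the interquartile range as covariate 5 of 10 were higher.

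**Figure D3:**
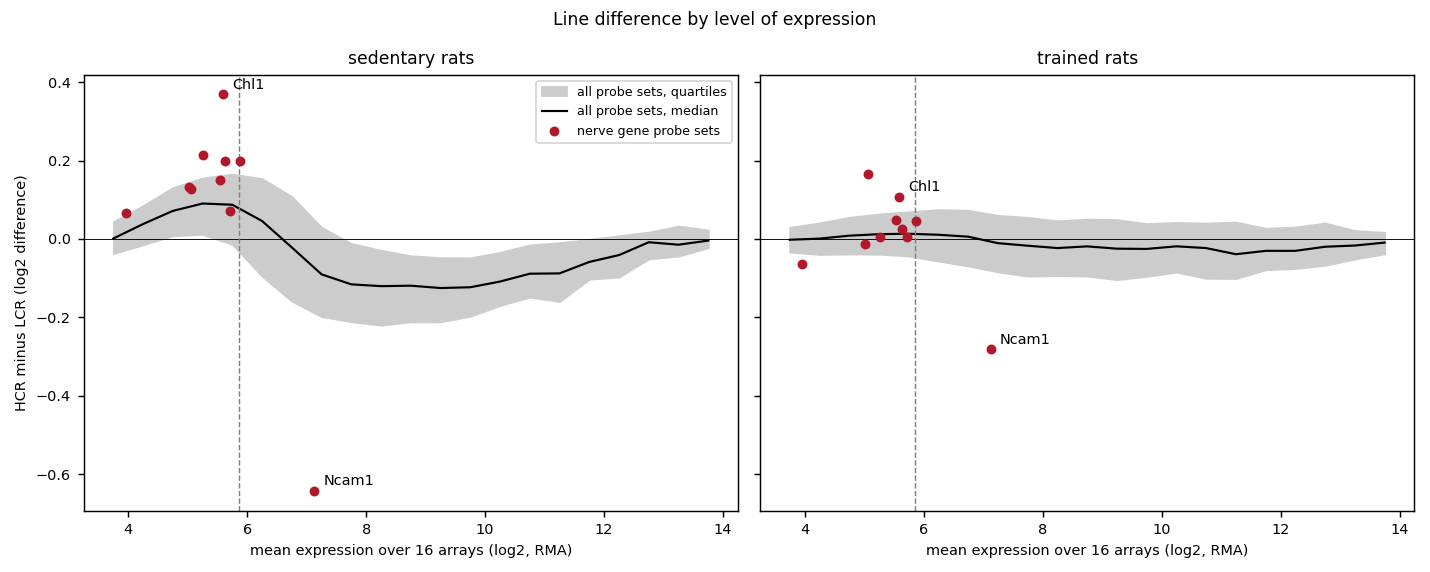
HCR minus LCR log2 difference (y axis) against mean log2 expression over 16 arrays (x axis) in sedentary and trained rats, with the median (line) and quartiles (grey) of all probe sets in steps of 0.5 and the 10 nerve gene probe sets in red. In sedentary rats the median line is above 0 at levels of 4 to 6.5 and below 0 at higher levels, and 6 of the 10 red points lie outside the quartiles of their step, 5 above (Chl1, S100b, Th, Prph and Gap43 1371287_at) and 1 below (Ncam1 1379389_at). In trained rats the line stays near 0 and 4 of the 10 lie outside. By construction as many of all probe sets lie outside the quartiles of a step as within them, and the sedentary differences chose the genes.

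In trained rats, whose values are not in the difference that named the genes, 0 of the 10 probe sets were called for the line difference in limma, and 0 had an unadjusted p under 0.05. Across the array 0.0966% of probe sets were called. The groups overlapped in all 10, where 3.14% of all probe sets did not. HCR was higher in 7 of the 10, which became 5 of 10 under each of the other 3 scalings of the arrays, with a median of 0.016. Chl1 was 0.11 ± 0.064 higher, with a 95% confidence interval of -0.028 to 0.24 and an adjusted p of 0.788. That interval ends below the 0.37 seen in sedentary rats, but the sedentary value had been selected for its size. Ncam1 1379389_at was -0.28 ± 0.18, with an interval of -0.66 to 0.099 and an adjusted p of 0.813, and that interval includes the sedentary value.

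The lowest adjusted p among the 10, 0.708, belonged to Gap43 1367930_at at 0.17 ± 0.083. Its other probe set had the opposite sign, -0.065 ± 0.050. Th differed by 0.045 ± 0.087 (interval -0.14 to 0.23) and Prph by 0.026 ± 0.071 (interval -0.12 to 0.18). S100b differed by 0.0041 ± 0.12 (interval -0.25 to 0.26) and Uchl1 by -0.014 ± 0.077 (interval -0.18 to 0.15). In 6 of the 10 probe sets the difference was below its SE. The trained interval included the sedentary difference in 7 of the 10 probe sets. It ended below it for Chl1, for Prph (0.20 in sedentary rats) and for Gap43 1371287_at (0.065 in sedentary rats). The sedentary values carry their own error and chose the genes, so this does not show that a difference shrank. For the trained minus the sedentary line difference, the interval included 0 for Prph (-0.38 to 0.040) and for Gap43 1371287_at (-0.28 to 0.021). For Chl1 it ran from -0.45 to -0.070, with an adjusted p of 0.475 in limma.

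**Figure D4:**
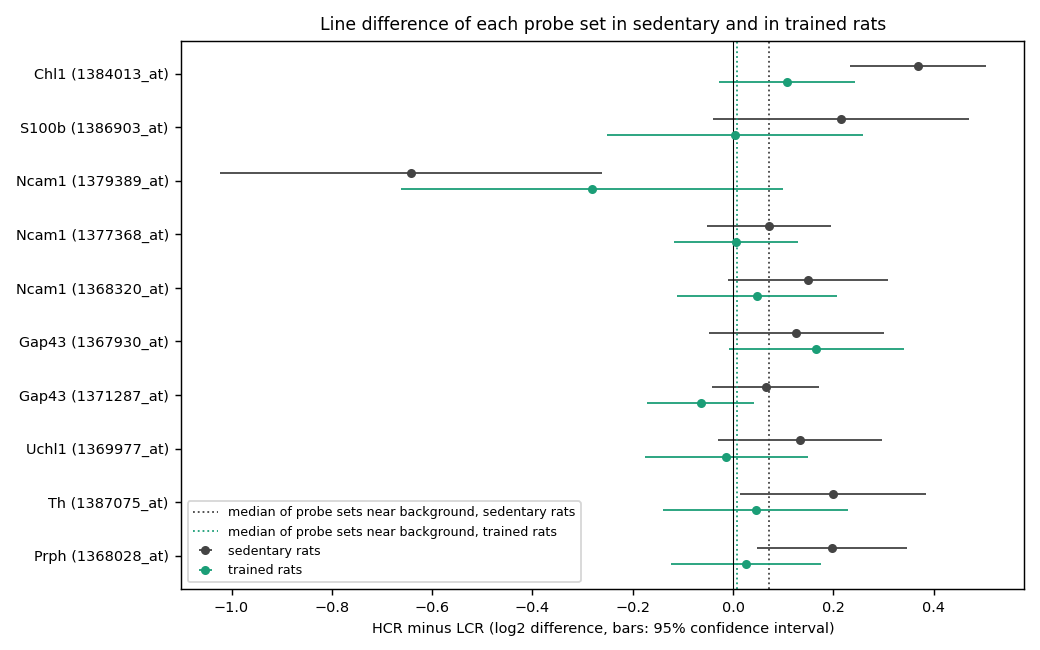
HCR minus LCR log2 difference (x axis) with its 95% confidence interval for each of the 10 probe sets (y axis), in sedentary (dark) and trained (green) rats, with dotted lines at the median of all probe sets near background. The sedentary differences chose the genes. The trained differences all have intervals that include 0, from -0.28 for Ncam1 1379389_at to 0.17 for Gap43 1367930_at.

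Training differences (trained minus sedentary) use the same sedentary rats that chose the genes, so part of any opposite movement comes with that choice. In HCR, 9 of the 10 probe sets were lower after training, with a median of -0.087, and 8 of 10 were lower under each of the other 3 scalings and without HCR sedentary rat 5 (median -0.077). None was called in limma, as across the array (0% of all probe sets called, with 4308 at an unadjusted p under 0.05). The groups did not overlap in 2, Ncam1 1377368_at (-0.17 ± 0.059, adjusted p = 0.263) and Uchl1 (-0.16 ± 0.077, adjusted p = 0.362), against 8% of all. Among the 62 probe sets of other tissues 54 were lower too, with a median of -0.096, and 46 were lower without rat 5. Chl1 was -0.10 ± 0.064 (adjusted p = 0.480) and the bright Ncam1 probe set 0.12 ± 0.18 (adjusted p = 0.787), or -0.099 and 0.089 without rat 5.

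In LCR, 6 of the 10 probe sets were higher after training and 4 lower, with a median of 0.022, and 5 were higher under each of the other 3 scalings. None was called in limma, against 0.00322% of all probe sets, and all groups overlapped, where 2.82% of all did not. Chl1 was 0.16 ± 0.064 higher, with an unadjusted p of 0.0222 and an adjusted p of 0.824. Ncam1 1379389_at was -0.24 ± 0.18 (adjusted p = 0.975). The remaining differences lay between -0.10 and 0.097.

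The interaction, the training difference in HCR minus that in LCR, contains the sedentary line difference and is given as a description. It was -0.26 ± 0.091 for Chl1, with an unadjusted p of 0.0105 and an adjusted p of 0.475 in limma. For Ncam1 1379389_at it was 0.36 ± 0.25 (adjusted p = 0.628). Without HCR sedentary rat 5 the values were -0.26 for Chl1 (adjusted p = 0.672) and 0.33 for Ncam1 1379389_at (adjusted p = 0.783). None of the 10 probe sets was called, as across the array (0% called, with 3068 at an unadjusted p under 0.05).

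Whether rats high in Chl1 within their group were also high in the other genes is a relation that a difference between groups did not choose. Over the 16 rats, as deviations from group means, Pearson's r with Chl1 was 0.30 for Uchl1 (permutation p = 0.298), 0.29 for Gap43 (p = 0.199) and 0.27 for Prph (p = 0.421). It was 0.082 for the bright Ncam1 probe set (permutation p = 0.769), -0.22 for S100b (p = 0.420) and -0.47 for Th (p = 0.165). Spearman's rho was 0.22 for Uchl1 (permutation p = 0.460), 0.38 for Gap43 (p = 0.143) and 0.28 for Prph (p = 0.354). It was 0.12 for Ncam1 (permutation p = 0.703), -0.29 for S100b (p = 0.305) and -0.39 for Th (p = 0.235). Adjusted over the 6 pairs, permutation p-values lay between 0.505 and 0.769 for r and between 0.531 and 0.703 for rho. Without HCR trained rat 5 and LCR sedentary rat 2, the farthest from the Chl1 median, r was 0.037 for Uchl1, 0.53 for Gap43, 0.061 for Prph, -0.016 for Ncam1, -0.32 for S100b and -0.27 for Th. None of the 6 relations passed this test. Chl1 was also set against each array's median near background (r = 0.074, permutation p = 0.790; rho = 0.032, p = 0.916) and interquartile range (r = -0.12, permutation p = 0.632; rho = -0.071, p = 0.808) in the same way, a relation added after seeing the data. Without the same 2 rats these r were 0.022 and -0.093.

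The named genes above background, of at least median spread, whose pattern over the 16 arrays was most like that of Chl1, among 7529 candidates, were Ifnar2 (r = 0.86, rho = 0.89), Fbxl20 (r = 0.85, rho = 0.83) and Tm4sf1 (r = 0.83, rho = 0.77). Zfp609 (r = 0.81, rho = 0.77), Synpo (r = 0.80, rho = 0.81) and Baz1b (r = 0.80, rho = 0.81) followed. After group means were removed, r was 0.74 for Ifnar2, 0.72 for Fbxl20, 0.56 for Tm4sf1, 0.67 for Zfp609, 0.42 for Synpo and 0.37 for Baz1b. These were picked as the highest of many, and the 16 points share the 4 groups and the array normalization. None is a member of the nerve lists described next.

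Of 125 other genes of nerve and Schwann cells, in 8 lists, 110 were measured and 59 of those were near background. In sedentary rats 83 of the 110 were higher in HCR and 27 lower, with a median of 0.095. That became 66, 73 and 59 higher with arrays centred on their medians, quantile-normalized and centred near background, and 77 higher without HCR sedentary rat 5. In limma 6 of the 110, or 5.45%, were called, against 6.3% of all named genes. The 6 were higher in HCR, but 3 higher and 2 lower were called with either centring and 2 higher with quantile normalization. The 2 lower were Ddc and Ezr, a linker of membrane to actin (-0.41, adjusted p = 0.0451 with arrays centred on their medians). Without rat 5 the 1 gene called was Adam8 (0.36, adjusted p = 0.0485). Of all 31042 probe sets, 2460 were called with arrays centred on their medians and 2912 with near-background centring. The number was 543 with quantile normalization and 112 without rat 5. The median over all 14217 named genes was -0.018, and over the 4599 of them near background it was 0.085.

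The called genes were Slc6a2 (0.33, adjusted p = 0.0452), the noradrenaline transporter, and Slc18a1 (0.27, adjusted p = 0.0294), a vesicular monoamine transporter. The others were the neuropeptide Gal (0.34, adjusted p = 0.0334), the adhesion molecule Cntn4 (0.26, adjusted p = 0.0414), the reticulon Rtn1 (0.31, adjusted p = 0.0441) and the protease Adam8 (0.37, adjusted p = 0.0150), which cleaves Chl1. Rtn1, at a mean of 8.21, and Gal, at 6.01, were above the background limit and the other 4 were not. Slc18a1 and Gal stayed called with either centring, Rtn1 with quantile normalization and Adam8 under each of these scalings. Slc6a2 and Cntn4 were called under none of them, nor without HCR sedentary rat 5. The second probe set of Adam8 differed by 0.024 (adjusted p = 0.860), unlike the first. Slc6a2, the transporter found beside Th on sympathetic endings, had values of 5.83, 6.19, 5.82 and 5.87 in sedentary HCR rats and 5.51, 5.66, 5.53 and 5.67 in sedentary LCR rats, which did not overlap. In trained rats it ran from 5.57 to 5.83 in HCR and from 5.53 to 5.84 in LCR, which overlapped.

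In trained rats 57 of the 110 genes were higher in HCR and 53 lower, with a median of 0.0047. In limma 0 were called and 7 had an unadjusted p under 0.05, against 2274 of all 31042 probe sets. Rtn1 came closest: 0.41 ± 0.082 (adjusted p = 0.0834). It had values of 8.43, 8.56, 8.24 and 8.44 in trained HCR rats and 8.05, 7.84, 7.96 and 8.18 in trained LCR rats, which did not overlap, as the sedentary groups did not. Rtn1 is an endoplasmic reticulum protein of neuroendocrine cells. With the arrays quantile-normalized Rtn1 was called in trained rats (0.43, adjusted p = 0.0369), the 1 such gene of the 110.

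By list, Schwann cell and myelin genes were higher in HCR in 12 of 15 in sedentary rats and in 7 of 15 in trained rats, with 0 called in either. The counts were 9 to 12 in sedentary and 6 to 8 in trained rats under the other 3 scalings. Sox10, the transcription factor that defines the Schwann lineage, differed by 0.25 ± 0.089 in sedentary rats (adjusted p = 0.0949) and by 0.20 ± 0.089 in trained rats (adjusted p = 0.660). Ngfr, the low-affinity neurotrophin receptor, differed by 0.12 in trained rats (adjusted p = 0.843). Axon cytoskeleton genes were higher in HCR in 12 of 16 in sedentary and 9 of 16 in trained rats, with 0 called. In sedentary rats that turned to 6 of 16 with either centring and was 8 of 16 with quantile normalization. Here Mapt (tau), above background, was lower in HCR by -0.37 and -0.23 (adjusted p = 0.0848 and 0.753), and its other 2 probe sets had the same sign. One of them was called in sedentary rats (-0.29, adjusted p = 0.0261). Sncg differed by 0.35 in trained rats (adjusted p = 0.753).

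Genes of catecholamine synthesis and storage were higher in HCR in 6 of 12 in sedentary rats, with 2 called (5 of 12 higher under each of the other 3 scalings), and in 4 of 12 in trained rats, with 0 called. Ddc, the enzyme after Th in the pathway, was at -0.43 in sedentary rats (adjusted p = 0.0512), at -0.037 in trained rats (adjusted p = 0.987), and was called with arrays centred on their medians (-0.48, adjusted p = 0.0299). It is named here after its values were seen. The trained differences were -0.11 for Pnmt (adjusted p = 0.878), which makes adrenaline, and -0.27 for Maoa (adjusted p = 0.912), which degrades monoamines. Cholinergic and peptidergic genes were higher in 12 of 12 in sedentary rats, with 1 called and 10 of 12 near background, and in 5 of 12 in trained rats, with 0 called. The 12 stayed higher under the other 3 scalings, and 7 of 12 were higher with the interquartile range as covariate. Vip differed by 0.18 and the nicotinic receptor subunit Chrna3 by 0.078 in trained rats (adjusted p = 0.706 and 0.867). Neuron identity and synapse genes were higher in 11 of 13 and in 6 of 13, with 1 and 0 called. In sedentary rats the count was 10 and 6 of 13 with arrays centred on their medians and near background, where the call was lost, and 8 of 13 with quantile normalization. The transcription factor Hand2 differed by -0.20 in trained rats (adjusted p = 0.499), with the same sign in its other probe set.

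Neurotrophin and guidance genes were higher in HCR in 11 of 16 in sedentary and 10 of 16 in trained rats, with 0 called, and in 8 of 16 in both with either centring. Ntrk3, a neurotrophin receptor, differed by -0.17 and Plxna3, a semaphorin receptor, by 0.16 in trained rats (adjusted p = 0.511 and 0.546), and the second Plxna3 probe set by -0.0026. The L1 family and other immunoglobulin adhesion genes, the relatives of Chl1, were higher in HCR in 12 of 15 in sedentary rats, 8 of 15 with near-background centring, and in 7 of 15 in trained rats, with 1 and 0 called. L1cam, the founding member of that family, differed by 0.057 in sedentary rats (adjusted p = 0.755) and 0.13 in trained rats (adjusted p = 0.890). Nfasc differed by 0.21 and 0.11 (adjusted p = 0.0554 and 0.756), and 1 of its other 4 probe sets had the opposite sign in trained rats. Binding partners and processing enzymes of Chl1 were higher in 7 of 11 in sedentary rats (5 of 11 with either centring) and in 9 of 11 in trained rats, with 1 and 0 called. In trained rats Adam8 differed by 0.21 (adjusted p = 0.407) and the integrin Itgb1 by 0.12 (adjusted p = 0.762).

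**Figure D5:**
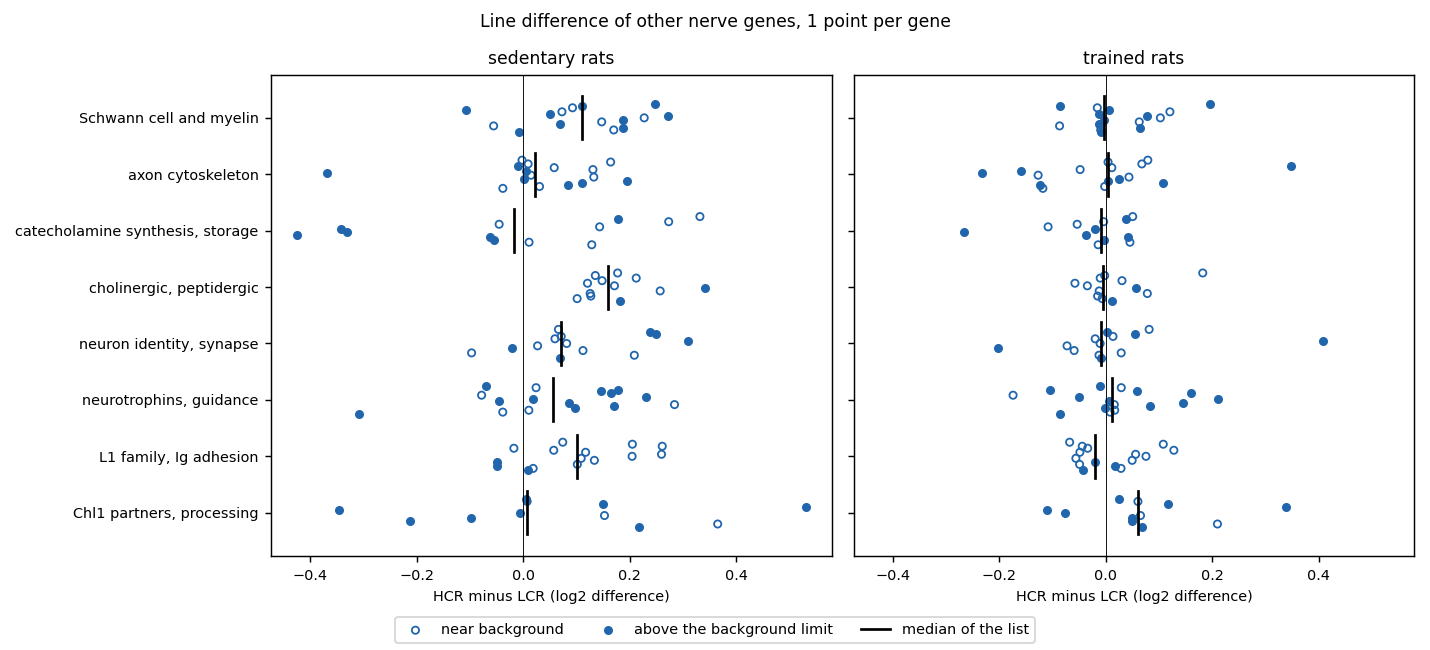
HCR minus LCR log2 difference (x axis) of 110 other nerve genes by list (y axis) in sedentary and trained rats, 1 point per gene, open where the gene was near background and filled where it was above the limit, with the median of each list as a black bar. In sedentary rats 83 of the points lie above 0 and in trained rats 57 do.

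With training, 89 of the 110 genes were lower in HCR, with a median of -0.079, and 0 were called. In limma 22 had an unadjusted p under 0.05, against 4308 of all 31042 probe sets. Without HCR sedentary rat 5 the number was 81. In LCR 61 were higher, with a median of 0.012, and 0 were called. There 5 had an unadjusted p under 0.05, against 1728 of all probe sets. The near-background genes among all named genes had medians of -0.063 in HCR and 0.010 in LCR. With arrays centred near background 68 of the 110 were lower in HCR.

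S100b is shared with adipocytes and Ncam1 with heart muscle, and immune cells can be present in any piece of ventricle. Of 6 adipocyte genes 5 were higher in sedentary HCR rats, 0 of them called, and Fabp4, the brightest, was lower (-0.055). The mean level of the 6 was 6.50 to 6.61 in sedentary HCR and 6.41 to 6.47 in sedentary LCR rats. The 62 probe sets of genes of other tissues stood apart likewise, at 5.20 to 5.29 and 5.09 to 5.14. In trained rats 3 of the 6 adipocyte genes were higher and 3 lower. Adipoq, Plin1, Lep and Cidec were near background on average. Of 6 lymphocyte and natural killer genes, 4 were near background on average. In HCR 4 of the 6 were higher and 2 lower in sedentary rats, and 1 was higher and 5 lower in trained rats. The 1 call in this list was in sedentary rats. That was Klrd1, a natural killer receptor, at -0.84 (adjusted p = 0.0291), and it was at -0.88 in trained rats (adjusted p = 0.110). Klrd1 was among the 4 near background, at a mean of 5.47. The mean level of that list was 5.63 to 5.88 in sedentary HCR and 5.65 to 6.06 in sedentary LCR rats, which overlapped. The 5 heart muscle genes averaged 13.4 to 13.6 in sedentary HCR and 13.6 in each sedentary LCR rat. The part of these cells in the differences of S100b and Ncam1 was not tested.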

How the data were processed

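The deposited values are log expression values, taken here as log2, that the authors made with RMA, which subtracts background, quantile-normalizes probes and summarises each probe set, per the labels' design text. No source used here names the log base. The submitters' processing notes also name limma. The members and gene lists were chosen with earlier results of these data known.

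Of 31099 probe sets 57 controls were left out and 31042 tested, with no filter on low values. Of these 20826 had 1 symbol, 436 several and 9780 were unlisted. Each was fitted in limma 3.58.1 (R 4.3.3) on all 16 arrays with 1 mean per group and 12 residual degrees of freedom, and p-values were adjusted by Benjamini-Hochberg. Tests were two-sided, with calls made at adjusted p-values up to 0.05. Groups and rats came from the sample titles, so replicates are separate animals, and their number limits the precision. Correlations used 100000 permutations within groups. A listed gene was represented by its brightest probe set. Genes named from the lists are those called and, per list, the 2 of lowest p in trained rats. The fit was tested on simulated data. Alternatives changed the scaling, filter, variance model, array weights, replicate block, covariate and rats included.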

Additional observations from a re-analysis of the deposited data

Results flagged for a closer look

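Gap43 1367930_at stood out in 1 rat: LCR sedentary rat 3 had a value of 5.13, while the other 3 rats of its group lay between 4.97 and 4.98. All are near background. The gap was 0.938 of the group's range, above Dixon's 95% critical value for 4 samples. It was the 1 such case among 40 tests of the 10 probe sets in 4 groups, where chance alone is set to give about 1 in 20.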

How the results depend on the processing

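In sedentary rats 2 nerve gene probe sets were called for the line difference. Chl1 alone was called with quantile normalization and with a trend or a robust prior in eBayes. With either filter on low values Ncam1 1379389_at alone was called, and Chl1 was left out of the test. The number was 0 with the interquartile range as covariate, and 0 to 2 when 1 rat was left out. Under the near-background centring the differences of Ncam1 1377368_at (-0.0028) and Gap43 1371287_at (-0.0095) changed sign, as did those of S100b, Ncam1 1377368_at, Gap43 1371287_at and Uchl1 under the covariate. In the other 4 comparisons none of the 10 was called under any setting run, though the filters left most of them untested. Rat numbers did not pair the samples (r of same-numbered rats -0.23 to 0.34, median 0.035, over 16 pairs). With the number as a replicate block the count stayed at 2, with Ncam1 1379389_at at -0.56 (adjusted p = 0.0550) and Prph called at 0.23 (adjusted p = 0.0408), and 3000 of all probe sets were called. Over all probe sets the 1549 sedentary line calls ranged from 2 (covariate) to 4183 (array weights) and from 35 to 1994 with 1 rat left out. The 30 trained line calls ranged from 11 to 30 and from 12 to 53. HCR training calls, 0, reached 27 with array weights and 39 without HCR trained rat 6, and LCR training calls, 1, ranged from 0 to 4. Of the sedentary line calls 40.2% were higher in HCR, against 12.1% with arrays centred on their medians and 9.13% with near-background centring. Within-group r of Chl1 and Th was -0.69 (adjusted permutation p = 0.269) with quantile normalization. The causes were not tested. Most of the 10 probe sets lie near background, and how a log2 difference there relates to a change in RNA was not tested.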
